A study of Homo sapiens with 6 samples.

Results

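Transforming growth factor beta (TGF-beta) signalling was followed through 10 of its genes in HCT116 cells, an epithelial line from a human colorectal cancer. The genes were the ligand TGFB1, the receptors TGFBR1 and TGFBR2, the signal transducers SMAD2, SMAD3 and SMAD4, the inhibitory SMAD7, and the nuclear repressors SKI, SKIL and TGIF1. They were chosen by name, with earlier results of these data known, and each matched 1 of the 60612 genes in the deposited table. RNA-seq compared 3 samples treated with an siRNA against PLOD3, an enzyme that modifies collagen lysines, with 3 samples given si NC, the negative control siRNA. All 6 samples were the same line, grown in medium with fetal bovine serum and treated for 2 days, and their RNA was depleted of ribosomal RNA. The series concerns PLOD3 in colorectal cancer progression. Whether the 3 samples of a group came from separate cultures is not stated, and p-values here cover the spread between these samples alone, which may be technical.

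As background, TGF-beta is secreted in a latent form, and once released it binds the type II receptor TGFBR2, which phosphorylates the type I receptor TGFBR1. TGFBR1 in turn phosphorylates SMAD2 and SMAD3, which join SMAD4 and enter the nucleus to switch target genes on or off. SMAD7 blocks the receptor, while SKI, SKIL and TGIF1 bind SMAD complexes on DNA and hold transcription down. In normal intestinal epithelium the pathway restrains growth, and colorectal cancers often lose part of it. HCT116 is deficient in DNA mismatch repair and is known for frameshifts in a run of adenines in the coding sequence of TGFBR2, which leave the line without a working type II receptor. TGF-beta made by these cells can therefore be measured as RNA, while their own SMAD response through TGFBR2 is taken to be impaired.

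That run is shown because it limits the line as a model of the pathway. It lies in the reference sequence at chr3:30650350-30650419 (GRCh38, plus strand), in exon 3 of 1 annotated TGFBR2 transcript and exon 4 of the other, with the run of 10 adenines in capitals, at codon 125 of the 567-codon form.
TGFBR2: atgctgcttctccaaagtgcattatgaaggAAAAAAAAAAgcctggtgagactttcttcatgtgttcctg
Expression values carry no alleles, so the number of adenines in these samples was not measured. The region upstream of TGFB1 is shown because TGFB1 had the largest fall of the 10 genes: 250 bases before its RefSeq start at chr19:41353923-41354172 (GRCh38.p14, minus strand, written 5′ to 3′), with GC boxes in capitals.
TGFB1: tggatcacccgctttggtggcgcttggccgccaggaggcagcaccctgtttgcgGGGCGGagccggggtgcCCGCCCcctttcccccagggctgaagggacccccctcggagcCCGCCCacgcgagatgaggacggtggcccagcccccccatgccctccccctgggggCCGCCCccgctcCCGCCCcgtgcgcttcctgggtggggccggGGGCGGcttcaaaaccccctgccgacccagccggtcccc
The GC box, a motif bound by SP1, was searched as GGGCGG on both strands and occurred 6 times in these 250 bases. It occurs at least once in 42.6% of 35116 RefSeq windows of the same length, with a median of 0 matches. The TGFB1 window is 76.8% GC. The SMAD box, searched as CAGAC on both strands, occurred 0 times there and is present in 38.0% of those windows. RefSeq windows matched 9 of the 10 genes, all but SKI. The most GC boxes in a window was 6 for TGFBR1, over 8 windows, and 7 for TGIF1, over 7 windows. The part of these motifs in the fall of TGFB1 was not tested.

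The estimated counts summed to between 55416555 and 71736017 in PLOD3 siRNA and to between 57457602 and 76802428 in si NC. PLOD3 itself had 3.44, 3.40 and 4.05 FPKM (fragments scaled to transcript length and sequencing depth) in PLOD3 siRNA and 6.40, 7.16 and 6.22 in si NC, a log2 fold change of -0.85 (edgeR adjusted p = 0.0035). The knockdown target was thus lower in every PLOD3 siRNA sample, at 55.1% of the si NC mean. Of 12 colorectal epithelial markers, 9 reached a mean of 1 FPKM, while CDH17, VIL1 and CEACAM5 did not. The summed level of the 12 was 581 to 658 FPKM in PLOD3 siRNA and 709 to 755 in si NC. Only the 9 were tested, and 5 of these 9 were called lower and 0 higher. Fibroblast markers summed to 1.49 to 1.92 FPKM in PLOD3 siRNA and 2.66 to 2.82 in si NC, with DCN and LUM without counts. Only 1 of the 7 reached a mean of 1 FPKM and was tested, and it was called lower. Leukocyte markers summed to 1.68 to 1.74 FPKM in PLOD3 siRNA and 0.902 to 1.69 in si NC, with PTPRC and CD3E without counts. Endothelial markers summed to 0.0907 to 0.119 FPKM in PLOD3 siRNA and 0.0940 to 0.230 in si NC, with CDH5 without counts. The part of these markers in the results on the 10 genes was not tested. Genes with a mean of at least 1 FPKM over the 6 samples were tested with edgeR's quasi-likelihood test, and a gene is said to rise, fall or be called where its Benjamini-Hochberg adjusted p was under 0.05. Of 12000 tested genes, 35.5% were called, 19.3% lower and 16.2% higher in PLOD3 siRNA. Higher genes were 45.6% of the calls, and 62.8% with limma on values rescaled to the same sum in every sample (TPM).

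TGFB1, SKI and TGIF1 fell in PLOD3 siRNA, and no other tested gene of the 10 passed the test. Of the 10 genes, 8 passed the filter on low values, while SMAD7 and SKIL lay below it. The 3 that fell are 3 of 8 tested, where 19.3% of all tested genes were called lower, and a count this small is not read against that share. No member rose: edgeR called 0 higher, 0 were higher at an unadjusted p under 0.05, and DESeq2 and limma called 0. The median log2 fold change of the 8 was -0.31, against 0.0034 over all tested genes. In bulk RNA, fewer cells that express a gene and less RNA per cell cannot be told apart.

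**Figure D1:**
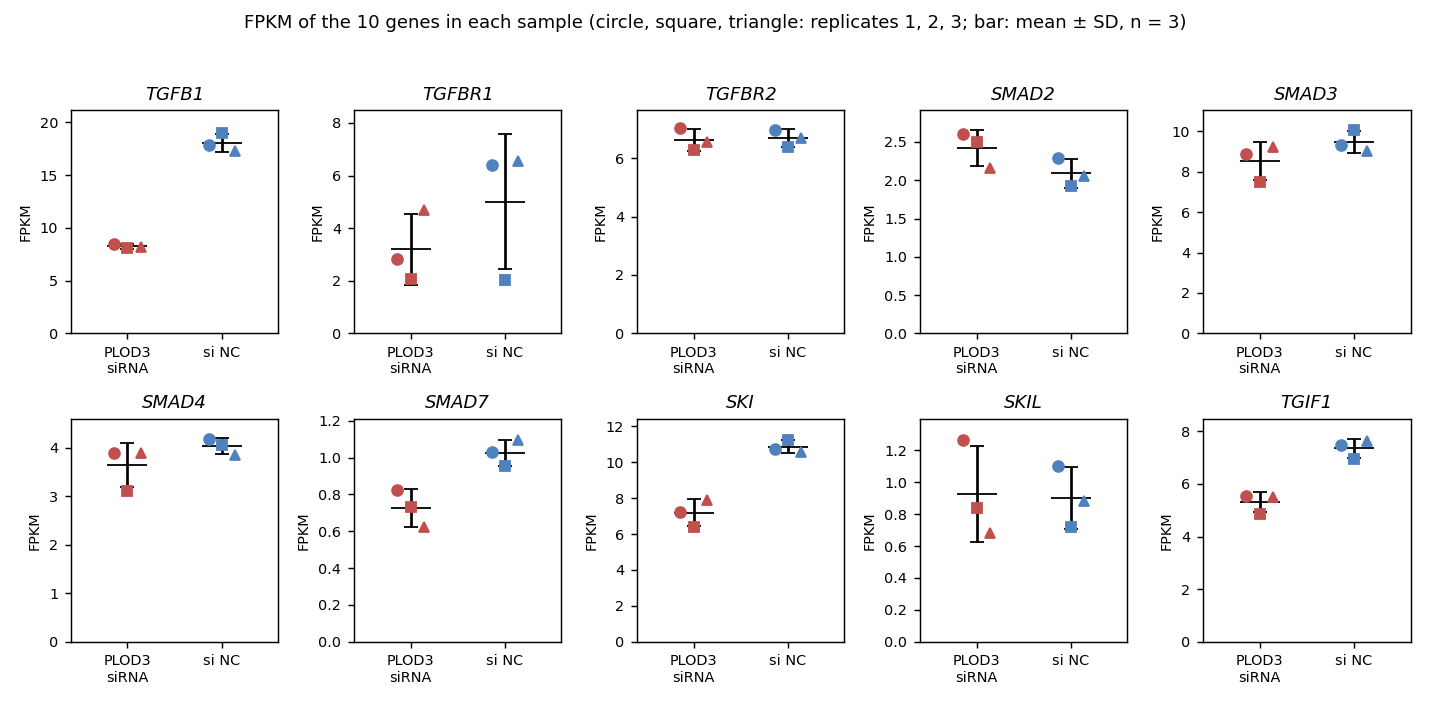
FPKM of the 10 genes (vertical axes, each starting at 0) in the 3 PLOD3 siRNA and 3 si NC samples, with replicates 1, 2 and 3 as circle, square and triangle and bars for mean ± SD (n = 3). TGFB1, SKI, TGIF1 and the low SMAD7 separate by group, while TGFBR1 spreads widely within each group.

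TGFB1 (ENSG00000105329, chromosome 19, 41301587 to 41353922, minus strand) encodes TGF-beta 1, the only ligand of the family counted among the 10. Its level was 8.50, 8.07 and 8.15 FPKM in PLOD3 siRNA and 17.9, 19.02 and 17.3 FPKM in si NC. The groups lay far apart, with each PLOD3 siRNA sample below every si NC sample. The mean was 8.24 ± 0.227 FPKM in PLOD3 siRNA and 18.1 ± 0.877 in si NC (SD, n = 3 each), or 45.6% of the control, a log2 fold change of -1.13 (edgeR SE 0.0752, adjusted p = 0.00131). After the trend of each sample against transcript GC content was removed (the GC correction), the log2 fold change was -0.78 (adjusted p = 0.00239). The annotated TGFB1 locus overlaps genes on the opposite strand, among them HNRNPUL1 at a mean of 30.6 FPKM in PLOD3 siRNA and 38.6 in si NC, and CCDC97 at 6.51 in PLOD3 siRNA and 7.03 in si NC. The strand setting of the counting is not given in the sources used here, so reads in the shared part cannot be told apart.

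TGFBR2 (ENSG00000163513, chromosome 3, 30606601 to 30694142, plus strand), the type II receptor, was the steadiest of the 10 between groups. It stood at 7.03, 6.28 and 6.56 FPKM in PLOD3 siRNA and at 6.98, 6.38 and 6.70 FPKM in si NC. The ranges lay almost on top of each other. Its log2 fold change of -0.0088 had a 95% interval of -0.17 to 0.15 (edgeR adjusted p = 0.929), which bounds any change in either direction to under 0.17 on the log2 scale at this spread. RNA of the gene with the adenine run was thus present, and in si NC its samples overlapped those of TGIF1 in level.

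TGFBR1 (ENSG00000106799, chromosome 9, 99104038 to 99154192, plus strand), the type I receptor kinase, varied widely within each group. Its level was 2.84, 2.07 and 4.70 FPKM in PLOD3 siRNA and 6.41, 2.04 and 6.55 FPKM in si NC. Replicate 2 was the lowest sample of each group, and the si NC replicate 2 lay below all 3 PLOD3 siRNA samples. The SD of log2(FPKM + 1) was 0.451 in PLOD3 siRNA, above that of 94.9% of tested genes, and 0.749 in si NC, above that of 98.2%. The log2 fold change of -0.64 had a 95% interval of -1.77 to 0.50 (edgeR adjusted p = 0.328), so a fall as large as that of TGFB1 and a modest rise both lie within it. It was -1.003 without si NC replicate 2 (adjusted p = 0.0722) and -1.002 without PLOD3 siRNA replicate 3 (0.187). It was -0.38 without si NC replicate 3 (0.621) and -0.42 without PLOD3 siRNA replicate 2 (0.587).

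The signal-carrying SMADs did not pass the test. SMAD3 (ENSG00000166949, chromosome 15, 67063763 to 67195169, plus strand), which binds DNA directly, had 8.86, 7.48 and 9.23 FPKM in PLOD3 siRNA and 9.30, 10.1 and 9.04 in si NC. The groups overlapped, and the log2 difference was -0.15 (95% interval -0.37 to 0.066, edgeR adjusted p = 0.234). SMAD2 (ENSG00000175387, chromosome 18, 47808957 to 47931141, minus strand), its close relative, had 2.61, 2.50 and 2.15 FPKM in PLOD3 siRNA and 2.29, 1.92 and 2.06 in si NC. Replicate 3 of PLOD3 siRNA fell among the si NC values and the others lay above them, with a log2 difference of 0.22 (95% interval -0.028 to 0.47, adjusted p = 0.142). Without that sample SMAD2 passed at 0.31 (adjusted p = 0.0437), whereas after the GC correction it stood at -0.026 (adjusted p = 0.841). A pseudogene inside the SMAD2 locus on the same strand, MTCO2P2, averaged 6.14 FPKM in PLOD3 siRNA and 5.46 in si NC, so its reads may not be fully separate. SMAD4 (ENSG00000141646, chromosome 18, 51028394 to 51085045, plus strand), the partner shared with the BMP branch, had 3.89, 3.113 and 3.90 FPKM in PLOD3 siRNA and 4.19, 4.06 and 3.85 in si NC. Replicate 2 of PLOD3 siRNA was the lowest and the groups overlapped, with a log2 difference of -0.15 (95% interval -0.36 to 0.065, adjusted p = 0.235). With the GC correction SMAD4 passed at -0.37 (adjusted p = 0.0382). When length was corrected as well it stood at -0.21 and did not pass (0.109).

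SMAD7 (ENSG00000101665, chromosome 18, 48919853 to 48952052, minus strand), the feedback inhibitor that TGF-beta itself induces in responsive cells, was low. It had 0.827, 0.735 and 0.622 FPKM in PLOD3 siRNA and 1.03, 0.955 and 1.10 in si NC, from counts of 354, 243 and 203 in PLOD3 siRNA and 347, 370 and 496 in si NC. Each PLOD3 siRNA sample lay below every si NC sample. Fitted with no filter on low values, where 10.8% of 32482 genes were called, its log2 fold change was -0.48 (edgeR SE 0.170, adjusted p = 0.123, unadjusted p = 0.0217), which did not pass.

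Of the repressors, SKI and TGIF1 fell. SKI (ENSG00000157933, chromosome 1, 2228319 to 2310213, plus strand), the cellular homologue of a chicken retroviral oncogene, had 7.23, 6.40 and 7.92 FPKM in PLOD3 siRNA and 10.7, 11.3 and 10.6 in si NC. All PLOD3 siRNA samples were lower, with means of 7.18 ± 0.762 FPKM in PLOD3 siRNA and 10.9 ± 0.359 in si NC (SD, n = 3 each) and a log2 fold change of -0.59 (edgeR SE 0.0837, adjusted p = 0.00459). SKI kept the call at a smaller size, -0.31 after the GC correction (0.0191) and -0.17 when length was corrected too (0.041). TGIF1 (ENSG00000177426, chromosome 18, 3411608 to 3459978, plus strand), a homeodomain protein that recruits corepressors to SMAD2 and SMAD3, had 5.54, 4.86 and 5.50 FPKM in PLOD3 siRNA and 7.47, 6.96 and 7.64 in si NC. These groups did not overlap either. The TGIF1 mean was 5.30 ± 0.383 FPKM in PLOD3 siRNA and 7.35 ± 0.351 in si NC (SD, n = 3 each), a log2 fold change of -0.47 (edgeR SE 0.0692, adjusted p = 0.00518) that stood at -0.69 after the GC correction (adjusted p = 0.00349).

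SKIL (ENSG00000136603, chromosome 3, 170357678 to 170396835, plus strand), the relative of SKI also called SnoN, was below the filter. Its level was 1.26, 0.837 and 0.683 FPKM in PLOD3 siRNA and 1.10, 0.718 and 0.885 in si NC, from counts of 346 to 835 in PLOD3 siRNA and 430 to 619 in si NC. The groups overlapped across their ranges. Fitted with no filter, the log2 difference was 0.062 (SE 0.244, edgeR adjusted p = 0.915), and it stood at -0.20 without PLOD3 siRNA replicate 1. Of the 8 tested genes, 3 did not overlap between groups, all lower in PLOD3 siRNA. Over all tested genes 52.1% did not overlap, 27.5% lower and 24.6% higher.

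**Figure D2:**
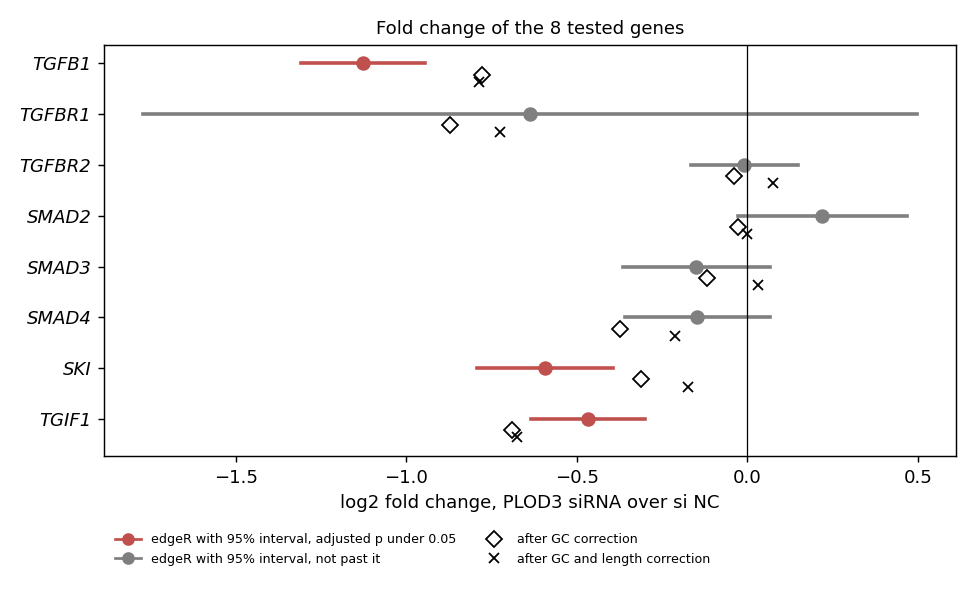
Log2 fold change of the 8 tested genes (horizontal axis, PLOD3 siRNA over si NC) with 95% intervals from edgeR, red where the adjusted p was under 0.05, and the values after the GC correction (diamonds) and the GC and length correction (crosses). TGFB1, SKI and TGIF1 lie left of 0 throughout, and the interval of TGFBR1 reaches from -1.77 to 0.50.

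By level per transcript length, TGFB1 led the 10 genes in si NC, ahead of SKI and SMAD3, with no overlap between these neighbours. In PLOD3 siRNA, SMAD3 had the highest mean at 8.53 FPKM and TGFB1 followed at 8.24, and their samples overlapped. SKIL and SMAD7 were the lowest in each group and overlapped each other. SMAD2 was the longest of the 10 in the annotation: its longest coding transcript in GENCODE is 34526 bases, and its ratio of count to FPKM corresponded to a length of about 36436 bases, against 3248 to 13133 for the other 9 genes. Counts of SMAD2, 5062 to 8054 in PLOD3 siRNA and 5363 to 6719 in si NC, were close to those of SMAD3, 4573 to 7012 in PLOD3 siRNA and 5776 to 7552 in si NC, although its FPKM was several times lower.

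Ratios within pairs of related genes were compared between groups with a two-sided exact permutation test, which with 3 against 3 samples cannot go below 0.1. SMAD3 stood at 3.40, 2.99 and 4.29 times the FPKM of SMAD2 in PLOD3 siRNA and at 4.06, 5.25 and 4.39 times in si NC, a log2 difference of -0.37 (exact p = 0.2). The ratio of SKI to SKIL was 5.72, 7.65 and 11.6 in PLOD3 siRNA and 9.73, 15.7 and 11.9 in si NC, a log2 difference of -0.61 (exact p = 0.2). The ratio of TGFBR2 to TGFBR1 was 2.47, 3.03 and 1.40 in PLOD3 siRNA and 1.09, 3.12 and 1.02 in si NC, a log2 difference of 0.53 (exact p = 0.4). All 3 pairs overlapped between the groups, and adjusted over the 3 ratios the exact p-values were 0.3, 0.3 and 0.4. The SKI to SKIL difference was -0.37 without PLOD3 siRNA replicate 1. For the receptors it was 1.051 without si NC replicate 2, 0.25 without si NC replicate 3, 0.29 without si NC replicate 1 or PLOD3 siRNA replicate 2, and 0.85 without PLOD3 siRNA replicate 3.

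Fold change moved with transcript GC content across all tested genes. Tested genes were split into 5 equal classes by GC. In the class with the lowest GC (up to 41.4%) the median log2 fold change was 0.28, with 2.51% called lower, and in the class with the highest GC (from 58.6%) it was -0.33, with 40.6% called lower. TGFB1, at 63.5% GC, and SKI, at 59.95%, lie in the highest class. TGIF1, at 41.3%, lies in the lowest class with TGFBR1, SMAD2 and SMAD4, and it fell where few genes of that class were called lower. The GC value of TGIF1 is that of its longest coding transcript, of 3030 bases. Its ratio of count to FPKM corresponded to about 8128 bases, so the RNA counted may differ in GC. The class of TGIF1 and its value after the GC correction rest on that transcript. All 3 calls were kept after the GC correction.

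**Figure D3:**
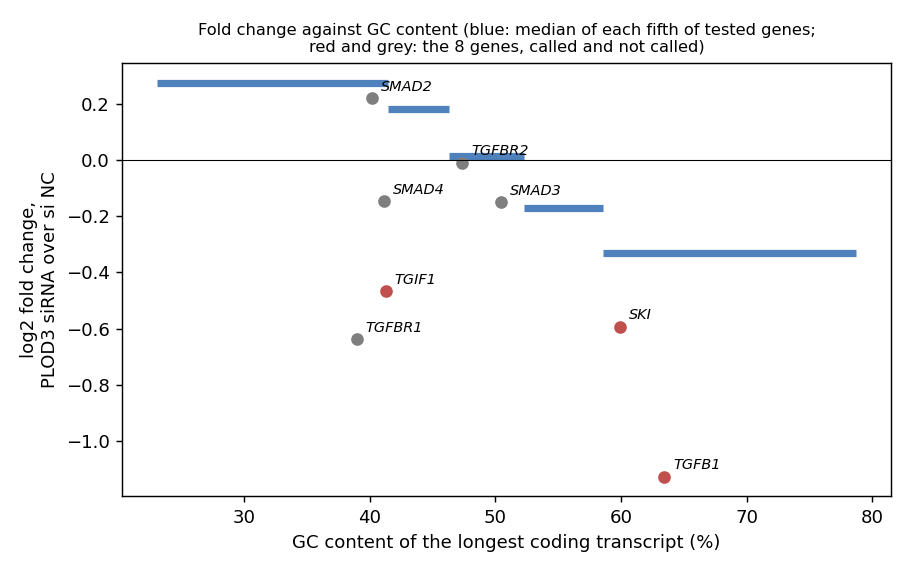
Log2 fold change (vertical axis, PLOD3 siRNA over si NC) against GC content of the longest coding transcript (horizontal axis, percent) for the 8 genes, red where called, with blue bars for the median of each of 5 GC classes of tested genes. The medians go from 0.28 at low GC to -0.33 at high GC, TGFB1 and SKI lie below the bar at high GC, and TGIF1 lies below the bar at low GC.

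The genes nearest to TGFB1 in pattern over the 6 samples, by Euclidean distance on centred log2(FPKM + 1), were CLDN3, GNAZ and FOLR1. Their distances were 0.133, 0.134 and 0.137, against a median of 1.34 over all tested genes. CLDN3, a tight junction claudin, had 3.57, 3.51 and 3.12 FPKM in PLOD3 siRNA and 8.27, 8.09 and 7.4999 in si NC. GNAZ, a G protein alpha subunit, averaged 3.17 ± 0.0216 FPKM in PLOD3 siRNA and 7.58 ± 0.495 in si NC, and FOLR1, a folate receptor, averaged 1.51 ± 0.0639 in PLOD3 siRNA and 4.17 ± 0.142 in si NC (SD, n = 3 each).

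The rest of the pathway was followed in 5 lists with 97 further genes, of which 64 were tested. Of these, 27 fell (42.2%) and 6 rose (9.38%), against 19.3% and 16.2% of all tested genes, with a median log2 fold change of -0.25. The lists were written with earlier results of these data known, so these shares are not independent of those results. The number that fell was 16 without PLOD3 siRNA replicate 1, 17 without PLOD3 siRNA replicate 2, 17 without si NC replicate 2 and 13 without si NC replicate 3. It was 13 after the GC and length correction and 13 on the TPM scale. The table's own KEGG annotation, which was not chosen by hand, pairs 91 genes with the TGF-beta signaling pathway, of which 57 were tested. Of the 57, 36.8% fell and 7.02% rose. Apart from 7 of the 10 genes above, 19 of its 50 other tested genes fell and 4 rose, with a median of -0.15. Of those 50, 18 are also in the 5 lists. These KEGG counts are from the main edgeR fit alone and were not repeated under the corrections or with samples left out.

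**Figure D4:**
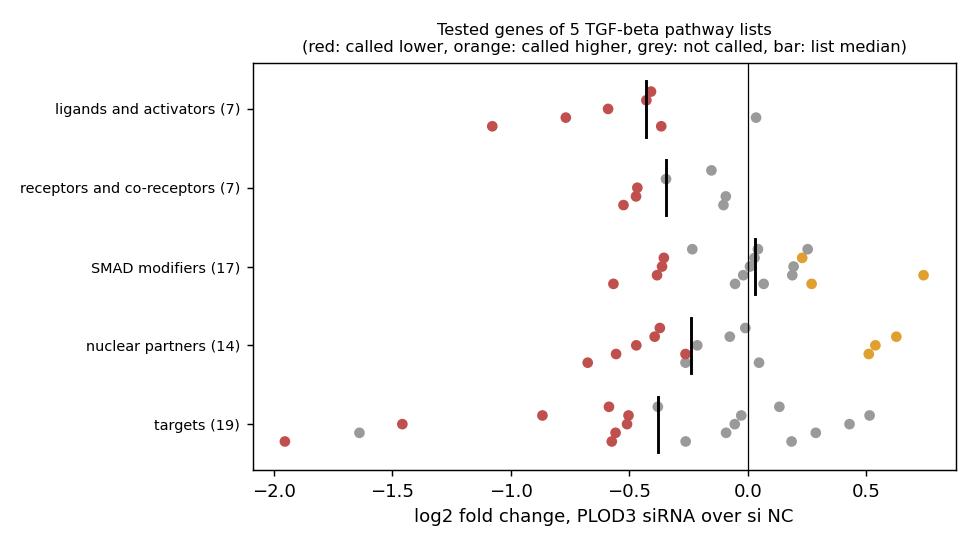
Log2 fold change (horizontal axis, PLOD3 siRNA over si NC) of the tested genes in 5 pathway lists, 1 point per gene, red where called lower, orange where called higher and grey otherwise, with a bar at each list's median. Among ligands and activators 6 of 7 points are red, while SMAD modifiers have 4 red and 3 orange points. Over all tested genes 19.3% were called lower and 16.2% higher.

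Among ligands and their activators, 6 of 7 tested genes fell, where 19.3% of all tested genes were called lower. A count this small, in a list written with earlier results known, is not read against that share. The number that fell was 5 with no filter, 3 after the GC correction and 2 when length was corrected too. The number was 3 without PLOD3 siRNA replicate 1, PLOD3 siRNA replicate 2 or si NC replicate 2, and 2 without si NC replicate 3. FURIN, the protease that cleaves the TGF-beta precursor, had 9.80, 9.69 and 9.54 FPKM in PLOD3 siRNA and 16.2, 18.2 and 15.2 in si NC, a log2 fold change of -0.77 (edgeR SE 0.0933, adjusted p = 0.00328). LTBP1, which anchors latent TGF-beta in the matrix, had 0.649, 0.621 and 0.912 FPKM in PLOD3 siRNA and 1.55, 1.64 and 1.43 in si NC, a log2 fold change of -1.08 (adjusted p = 0.00561). In neither gene did the groups overlap, but both were named for a small p. Over all tested genes 27.5% did not overlap and were lower. LTBP1 averaged 0.727 FPKM in PLOD3 siRNA and passed the filter on low values through si NC, at 1.54. With no filter its log2 fold change was -1.07 (edgeR adjusted p = 0.00801). GDF11, counted among the 6, averaged 0.985 FPKM in PLOD3 siRNA and also passed the filter through si NC, at 1.33. Its call (log2 -0.43, edgeR adjusted p = 0.0493) was not kept with no filter (0.116). LTBP4 (log2 -0.59, adjusted p = 0.0225) and FSTL3, which binds activins (-0.41, adjusted p = 0.0107), fell too. LTBP4 did not pass after the GC correction (adjusted p = 0.25) nor without PLOD3 siRNA replicate 1 or 2 or si NC replicate 2 or 3 (0.0570 to 0.0737), and FSTL3 did not pass after the GC correction (0.726) nor without si NC replicate 3 (0.0507). FURIN, LTBP4 and FSTL3, at 61.7%, 66.7% and 64.4% GC, lie in the class with the highest GC, where 40.6% were called lower. The tested gene that did not fall was the integrin subunit ITGAV (log2 0.034, edgeR adjusted p = 0.905). Of the 7 tested, edgeR called 0 higher, 0 were higher at an unadjusted p under 0.05, and DESeq2 and limma called 0. Below the filter, LTBP2 was higher at an unadjusted p of 0.0197 in the edgeR fit with no filter (log2 0.53, adjusted p = 0.115). In that fit LRRC32 was called lower (log2 -1.47, adjusted p = 0.0355), on counts of 23 to 30 in PLOD3 siRNA and 53 to 95 in si NC. ITGB8 was lower there at an unadjusted p of 0.0113 (log2 -0.84, adjusted p = 0.0801). The other TGF-beta isoforms stayed under the filter. TGFB2 had 0.107, 0.0633 and 0.104 FPKM in PLOD3 siRNA and 0.132, 0.0980 and 0 in si NC, and TGFB3 averaged 0.305 in PLOD3 siRNA and 0.385 in si NC.

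Of 7 tested receptors and co-receptors, 3 fell, where 19.3% of all tested genes were called lower. A count this small is not read against that share. The number that fell was 1 without si NC replicate 1 or 3 and on the TPM scale. ACVR1B, the activin type I receptor that also phosphorylates SMAD2 and SMAD3, had 5.32, 4.18 and 4.99 FPKM in PLOD3 siRNA and 6.95, 7.22 and 6.72 in si NC, a log2 fold change of -0.53 (edgeR SE 0.0964, adjusted p = 0.00916). ACVR2B, an activin type II receptor, and BAMBI, a decoy receptor without a kinase, each fell by 0.47 on the log2 scale (adjusted p = 0.0324 and 0.0349). These last calls were fragile. ACVR2B kept its call when PLOD3 siRNA replicate 1 or 2 was left out and had an adjusted p of 0.0504 to 0.0941 without each other sample. BAMBI kept it when PLOD3 siRNA replicate 3 was left out, with 0.0586 to 0.118 without each other sample, and it did not pass after the GC correction (0.0916). TGFBR3, the co-receptor betaglycan, averaged 1.0485 ± 0.0393 FPKM in PLOD3 siRNA and 1.34 ± 0.202 in si NC (SD, n = 3 each, edgeR adjusted p = 0.0802). It passed after the GC correction (-0.48, adjusted p = 0.0251) and without si NC replicate 2 (-0.45, 0.0347). Among these 7 too, edgeR called 0 higher, 0 were higher at an unadjusted p under 0.05, and DESeq2 and limma called 0. Below the filter, NRP1 was higher at an unadjusted p of 0.0072 in the edgeR fit with no filter (log2 0.75, adjusted p = 0.0602). In that fit ACVRL1 was called lower (log2 -1.50, adjusted p = 0.0261), on counts of 22 to 48 in PLOD3 siRNA and 97 to 159 in si NC.

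Of 17 tested genes that modify SMADs and receptors, 4 fell (23.5%) and 3 rose (17.6%), shares near the 19.3% and 16.2% of all tested genes, with a median of 0.028. The number that fell was 5 with no filter, 2 without PLOD3 siRNA replicate 2, and 1 on the TPM scale or when GC and length were both corrected. The number that rose was 1 without PLOD3 siRNA replicate 1 or 3 or si NC replicate 3, with no filter, and with limma on FPKM. SMURF2, a ubiquitin ligase that SMAD7 brings to the receptor, had 16.3, 14.8 and 15.9 FPKM in PLOD3 siRNA and 21.0, 18.5 and 20.8 in si NC, a log2 fold change of -0.35 (edgeR SE 0.0671, adjusted p = 0.0101). Its relative SMURF1 fell by 0.38 on the log2 scale (adjusted p = 0.0127), and on the TPM scale neither passed (limma adjusted p = 0.0857 for SMURF2 and 0.0792 for SMURF1). Among deubiquitinases, USP15 and USP4 (log2 0.23, edgeR adjusted p = 0.0456) rose, USP11 fell and UCHL5 (log2 0.19, 0.112) did not pass. USP4 did not pass when any 1 sample was left out. USP15, which removes ubiquitin from the receptor and from SMADs, had 2.72, 2.84 and 2.85 FPKM in PLOD3 siRNA and 1.99, 1.44 and 1.64 in si NC, a log2 fold change of 0.74 (adjusted p = 0.00563). USP11 fell by 0.57 on the log2 scale (adjusted p = 0.0186), a call not kept after the GC correction (0.0516) or without PLOD3 siRNA replicate 2 (0.0561).

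Of 14 tested nuclear partners, 6 fell (42.9%) and 3 rose (21.4%), against 19.3% and 16.2% of all tested genes, with a median of -0.24. The number that fell was 3 without PLOD3 siRNA replicate 1 or 2 or si NC replicate 2, and 2 without si NC replicate 3. It was 3 with no filter and with limma on FPKM, and 2 on the TPM scale or when GC and length were both corrected. With no filter 4 were higher, ZEB1 among them (log2 0.84, edgeR adjusted p = 0.0288). E2F4, which joins SMAD3 and the pocket protein RBL1 in a repressor of MYC, had 13.0, 14.3 and 13.9 FPKM in PLOD3 siRNA and 22.9, 21.0 and 22.4 in si NC, a log2 fold change of -0.68 (edgeR SE 0.0779, adjusted p = 0.00287). RUNX3, a DNA-binding partner of SMADs, fell by 0.56 on the log2 scale (adjusted p = 0.00941), and stood at -0.24 when GC and length were both corrected (0.0593). The 3 that rose were SNW1, NCOR1 and RBL1, the last named after its values were seen (log2 fold change 0.51, adjusted p = 0.0128). RBL1 stood at 0.26 after the GC correction and did not pass (0.0738). SNW1, a SKI-binding coregulator, had 39.3, 36.005 and 36.8 FPKM in PLOD3 siRNA and 26.1, 22.1 and 24.7 in si NC, a log2 fold change of 0.63 (adjusted p = 0.0031). NCOR1, a nuclear corepressor that binds SKI, rose by 0.54 on the log2 scale (adjusted p = 0.00548).

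Of 19 tested target genes, 8 fell (42.1%) and 0 rose in the main edgeR fit, with a median of -0.38. Over all tested genes 19.3% were called lower and 16.2% higher. The number that fell was 5 without PLOD3 siRNA replicate 1 or 3 or si NC replicate 3, and 5 after the GC correction or on the TPM scale. At an unadjusted p under 0.05, 1 was higher, while DESeq2 called 0 higher and limma called 0 on log2(FPKM + 1), 1 on log2(FPKM + 0.1) and 1 on TPM. With edgeR, 1 was called higher after the GC correction and 1 when length was corrected too. TGM2, a transglutaminase that crosslinks proteins, had 0.842, 0.752 and 0.887 FPKM in PLOD3 siRNA and 3.15, 3.26 and 3.25 in si NC. CDKN2B, the CDK inhibitor p15 by which TGF-beta arrests epithelial cells, had 1.41, 0.985 and 1.57 FPKM in PLOD3 siRNA and 2.29, 2.44 and 2.50 in si NC, a log2 fold change of -0.87 (edgeR SE 0.173, adjusted p = 0.0118). Fibronectin (FN1) averaged 0.682 ± 0.124 FPKM in PLOD3 siRNA and 1.89 ± 0.136 in si NC, and its receptor subunit ITGA5 averaged 6.20 ± 0.754 in PLOD3 siRNA and 9.25 ± 0.700 in si NC (SD, n = 3 each). In each of these 4 genes every PLOD3 siRNA sample lay below every si NC sample. They were named for the smallest p in the list, so this separation follows from their choice and is not read as a trait of the targets. Over all tested genes 27.5% did not overlap and were lower. ITGA5 did not pass when GC and length were both corrected (edgeR adjusted p = 0.0694). TGM2 and FN1 averaged under 1 FPKM in PLOD3 siRNA and passed the filter on low values through si NC. With no filter their log2 fold changes were -1.94 and -1.45 (edgeR adjusted p = 0.00026 and 0.00214).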

How the data were processed

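Each sample's group and replicate number came from its title. The authors deposited FPKM, not scaled between samples, and estimated counts as whole numbers, per the file headers. StringTie 1.3.4d, HISAT2 2.0.4 and cutadapt 1.9 are listed in the submitters' processing notes. Build, annotation and strand setting: not given in the sources used here. Of the table's genes, 96.3% matched GENCODE 29 (GRCh38) by identifier, and 99.9% of those overlapped their annotated position. Counts piled up at 4 (a mean of 1490 genes per sample at 4, 558 at 3 and 312 at 5). A count may thus be more than a number of read pairs and may understate counting noise. With counts divided by 4, edgeR called 2330 genes lower and 1958 higher, against 2319 and 1945 in the main fit.

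Counts were used as deposited in edgeR 4.0.16 (R 4.3.3) with TMM scaling and a quasi-likelihood test, two-sided, without covariates, on the 12000 genes whose mean reached 1 FPKM. Intervals use the fit's total degrees of freedom, prior plus residual (6.54). Standard errors were derived from the F statistic. The fit was tested on simulated counts with the same dispersion in every gene and no trend with GC content. That test does not cover the GC trend or the uneven spread of these data. Alternatives were DESeq2 1.42.0, limma 3.58.1, other scalings and filters, GC and length corrections (loess, span 0.5, 11968 genes with a value), a replicate block and each sample left out. Same-numbered samples did not deviate together. Genes named were the 10, PLOD3, up to 4 per list with the smallest p, and the 3 nearest to TGFB1 in pattern. TGFB2, TGFB3, ITGAV, LTBP2, GDF11, LRRC32, ITGB8, NRP1, ACVRL1, ZEB1, RBL1, USP4 and UCHL5 were added after their values were seen. The 10 genes and the lists were chosen with earlier results of these data known. Of the value columns, 0 were left unmapped. Promoter windows came from RefSeq (GRCh38.p14) and the TGFBR2 sequence from GENCODE 29 transcripts. Values of 1 gene of the target list are not reported here.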

Additional observations from a re-analysis of the deposited data

How the results depend on the processing

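TGFB1, SKI, TGIF1 and PLOD3 kept direction and call under all 17 alternatives; in the added fits with no filter, TGIF1 did not pass without PLOD3 siRNA replicate 1 or si NC replicate 3. Across alternatives that leave out a sample, PLOD3 ranged from -0.92 to -0.77 (log2). Members called lower stayed at 3 without each sample and were 4 after the GC correction; members called higher ranged from 0 to 1. For calls over all genes (2319 lower, 1945 higher) the range without each sample was 1509 to 2011 lower and 1083 to 1651 higher, with the lowest without si NC replicate 3 and without PLOD3 siRNA replicate 1. The TPM scale gave 1461 lower, the GC and length correction 1545 lower, and the GC correction with replicate block 1201 lower and 1046 higher. For the 5 lists (27 lower, 6 higher) the same alternatives gave 13 lower, 13 lower, and 14 lower and 3 higher, with 13 to 23 lower and 4 to 5 higher without each sample; the cause was not tested. TGFBR2 turned sign within its error, to 0.0022 with no filter, 0.086 on the TPM scale and 0.076 after the GC and length correction, and lay between -0.041 and 0.011 without each sample. SMAD2 turned to -0.026 after the GC correction, -0.0020 after the GC and length correction and -0.031 with the block added, and SMAD3 to 0.030 after the GC and length correction. SKIL, fitted with no filter, ranged from -0.20 to 0.25 without each sample (fits chosen after seeing the data), with -0.064 without si NC replicate 2. Same-numbered samples did not deviate together over all tested genes (r between -0.023 and 0.049 for the 3 pairs). The titles give them a shared number only, and these correlations cannot tell whether they shared a culture day or batch. The replicate block gave 1834 lower and 1471 higher over all genes and 3 members lower. SMAD7 and SKIL rest on counts of 203 to 835.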
